A study of Mus musculus with 15 samples.

Results

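The ATF4 stress, amino acid and tRNA-synthetase programme was followed through the early response to deletion of Klf5 in mouse biliary epithelial cells. It comprised 39 genes chosen by symbol for their place in the pathway, of 24421 gene symbols in the authors' deposited tables, and all 39 were present in both tables. By role they were 7 transcription factors, 5 stress effectors, 6 serine and one-carbon enzymes, 4 other amino acid enzymes, 5 amino acid carriers and 12 tRNA synthetases. The 15 libraries came from an established line of adult bile duct origin on the C57BL/6 background, and every library, controls included, carried the genotype ITR-CreERT2;Klf5flox/flox. Ethanol, the solvent, was given to 3 libraries at 12 h and 4 at 24 h, and 4-OH tamoxifen, which switches on the CreERT2 recombinase, to 4 libraries at each time. No library combined tamoxifen with an intact Klf5 locus or with an inactive recombinase, so responses to the drug, to the recombinase and to Klf5 loss cannot be told apart. The labels do not say whether replicates were separate cultures or whether the line is 1 clone, so p-values may reflect technical spread alone. Whether 3D structures in culture, as in the title, or structures in vivo, as in the design text, were sampled is not settled by the labels.

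The tables hold 1 value per gene and time for the comparison of tamoxifen with ethanol, so no member can be shown library by library. Each gene has a mean normalised read count over all libraries of the time, a log2 fold change of tamoxifen over ethanol, its standard error (SE), a Wald p and an adjusted p. Counts in genes averaged 13.9 M per library at 12 h and 11.8 M at 24 h. Klf5 itself stood at 40.9% of the ethanol level at 12 h and 30.4% at 24 h, from the folds in the authors' deposited tables. All 8 biliary markers were detected, and in the authors' deposited table their mean normalised counts at 12 h ran from 15.7 for Epcam to 25377 for Spp1. Of 18 markers of other cells in the authors' deposited tables, 8 were at 0 at both times, namely Cyp2e1, Col3a1, Dcn, Lrat, Cdh5, Stab2, Adgre1 and Cd3e. A further 7, Alb, Cps1, Pdgfrb, Pecam1, Kdr, Ptprc and Cd79a, were present at means of at most 3.68. The hepatocyte transcripts Apoa1 and Ttr had means of 1291 and 685 at 12 h and 448 and 267 at 24 h, and the fibroblast collagen gene Col1a1 had means of 29.6 and 10.8, above those of Epcam, 15.7 and 9.56, in the authors' deposited tables. Levels per library were not at hand for these markers.

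ATF4 is the main effector of the integrated stress response. When amino acids run short, haem is lacking, unfolded proteins build up or viral RNA appears, 1 of several kinases phosphorylates the initiation factor eIF2, general translation falls and the Atf4 transcript is translated more efficiently. ATF4 protein then binds composite C/EBP-ATF elements with C/EBP partners and raises transcription of genes that take up amino acids, make serine, glycine, asparagine and proline, supply one-carbon units and charge tRNAs. Prolonged activity also raises Ddit3, Trib3, Chac1 and Ppp1r15a, which dampen the response or favour cell death. Much of the control of ATF4 is translational, and transcript counts do not measure it.

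Promoter sequences were not read when the members were chosen. The members were chosen for their place in the ATF4 pathway, however, and ATF4 binds C/EBP-ATF elements. The share of members with such an element is thus not independent of the choice. The core of the C/EBP-ATF element, TGATGNAA, was searched on both strands in RefSeq promoter windows on GRCm38.p6 that run from 250 bases before to 50 bases after a gene's start. Promoters were matched for 32 members, and Aldh1l2, Cars, Cth, Lars, Nars, Slc7a5 and Wars had no entry in the table used. The core occurred in 12 of the 32 matched members, 37.5%, against 1219 of 27025 genes, 4.51%. Counted by window, 12 of 37 member promoters held it, 32.4%, against 1304 of 32851, 3.97%. It was found in 5 of 8 matched synthetases, in 2 of 5 stress effectors, in 2 of 7 transcription factors, in 2 of 3 matched other amino acid enzymes, in 1 of 4 matched carriers and in none of 5 matched serine and one-carbon enzymes. A match is a description of letters and not a bound site. Matches of 11 members are printed with 9 bases on either side, on the strand that reads TGATG, with the core in capitals; the base at the N is C in most of them.
Atf3 (chr1:191183427-191183452, plus strand): cggacttggTGATGCAAgtgcgagaa
Chac1 (chr2:119351040-119351065, minus strand): tggcaggagTGATGCAAcggcaggga
Trib3 (chr2:152344030-152344055, plus strand): ccgcccggcTGATGTAAacctgagct
Slc7a11 (chr3:50443663-50443688, minus strand): tcatgtggcTGATGCAAacctggaga
Slc7a11 (chr3:50443644-50443669, plus strand): gctgcatgaTGATGCAAattctccag
Yars (chr4:129189897-129189922, plus strand): gagctcagcTGATGCAAcccgacggg
Asns (chr6:7693216-7693241, minus strand): ccagccacaTGATGAAActtcccgca
Gars (chr6:55037962-55037987, minus strand): cccggtgcaTGATGAAAtagcgcagc
Nupr1 (chr7:126625564-126625589, plus strand): agccctgtcTGATGCAAtctggccct
Pycr1 (chr11:120643835-120643860, minus strand): ccctgtgtaTGATGCAAtgcacaagg
Iars (chr13:49682128-49682153, minus strand): gtctggaggTGATGCAAtactgacag
Tars (chr15:11399657-11399682, plus strand): ctaaccagcTGATGCAAcgggactcc
Distances are given to the first base of the match as read in the direction of the gene, whichever strand reads TGATG. Matches lay close to the start in Asns, Tars and Gars, at 23, 15 and 30 bases before it. In Yars, Iars and Trib3 they lay 3, 7 and 14 bases after it. Those in Chac1 and Atf3 lay 193 and 110 bases before the start. Slc7a11 held a pair on opposite strands, at 66 and 47 bases before its start. The full windows of the 3 members with the smallest p at 24 h among those with a match are printed in the direction of the gene, with the core in capitals, which in all 3 appears as its reverse complement.
Atf3 promoter (chr1:191183284-191183583, minus strand): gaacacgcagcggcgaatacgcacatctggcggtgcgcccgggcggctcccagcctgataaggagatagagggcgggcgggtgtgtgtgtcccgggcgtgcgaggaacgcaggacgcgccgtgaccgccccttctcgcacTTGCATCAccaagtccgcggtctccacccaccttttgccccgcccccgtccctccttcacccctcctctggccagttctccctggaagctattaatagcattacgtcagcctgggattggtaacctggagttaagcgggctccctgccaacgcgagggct
Nupr1 promoter (chr7:126625421-126625720, minus strand): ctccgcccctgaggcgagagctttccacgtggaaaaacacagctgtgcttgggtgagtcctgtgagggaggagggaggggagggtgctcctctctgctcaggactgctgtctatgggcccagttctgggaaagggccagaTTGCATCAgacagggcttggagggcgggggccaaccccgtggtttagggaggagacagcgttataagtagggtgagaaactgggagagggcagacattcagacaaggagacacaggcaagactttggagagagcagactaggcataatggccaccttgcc
Gars promoter (chr6:55037751-55038050, plus strand): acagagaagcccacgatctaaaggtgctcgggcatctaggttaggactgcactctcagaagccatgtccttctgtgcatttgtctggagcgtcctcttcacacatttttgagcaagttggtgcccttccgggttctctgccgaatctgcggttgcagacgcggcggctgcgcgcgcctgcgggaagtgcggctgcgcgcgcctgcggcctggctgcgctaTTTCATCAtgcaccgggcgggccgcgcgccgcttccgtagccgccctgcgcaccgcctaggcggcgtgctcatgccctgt

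At 12 h members of the programme varied widely between libraries, and no response to tamoxifen was called. None of the 38 members with an adjusted p had an adjusted p below 0.05 by the authors' Wald test (DESeq2), where 0.943% of all genes with an adjusted p did. At an unadjusted p under 0.05, 1 member of 39 rose and 0 fell, where 310 of 15704 genes with a p rose and 459 fell. No other tool could be run, since there are no counts per library. That member was Ddit4, an inhibitor of mTORC1 signalling, with a log2 fold of 0.66 (SE 0.29, unadjusted p = 0.0253, adjusted p = 0.644, Wald test) in the authors' deposited table. Folds had no common sign, with 23 positive and 15 negative and a median of 0.07, against a median of -0.01 and 51.4% negative over all genes. They ran in the authors' deposited table from -0.75 for Atf3 to 0.66 for Ddit4. The median SE of the members was 0.52 on the log2 scale, against 0.18 for all genes with an adjusted p, so that a log2 fold of 1.01 was needed at the median SE to reach an unadjusted p of 0.05.

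**Figure D1:**
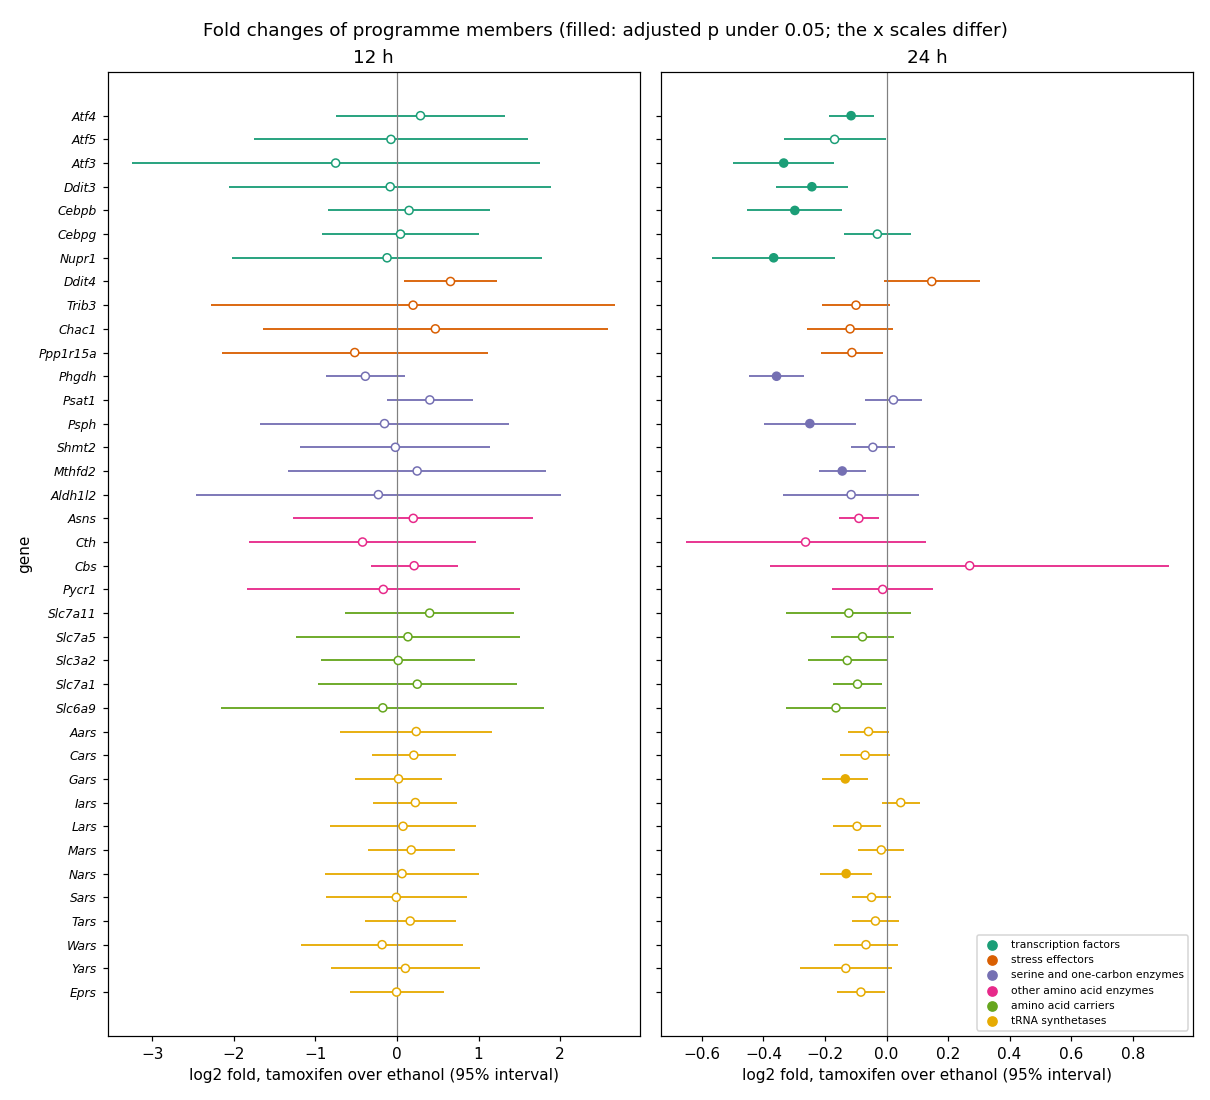
Log2 fold of tamoxifen over ethanol (x axis; the scales of the panels differ) for 38 members with an adjusted p, grouped by role, at 12 h (left) and 24 h (right). Points are the authors' folds, bars are 95% intervals from the authors' SE, and filled points passed an adjusted p under 0.05; at 12 h the intervals are wide and none is filled, at 24 h 10 are filled and all lie below 0.

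The SE of a log2 fold reflects how far libraries of the same group differ. Trib3, a pseudokinase that restrains ATF4 and AKT, had a mean of 2802 and an SE of 1.27 in the authors' deposited table. That is 9.38 times the running median SE of genes of similar mean, the highest ratio of all 9587 genes with a mean of at least 100. With 3 and 4 libraries it corresponds to an SD between libraries of about 1.66 on the log2 scale. Atf3, a stress-induced bZIP factor, followed at 9.19 times (SE 1.28 in the authors' deposited table), then Chac1, which degrades glutathione, at 7.69 times (SE 1.08 in the authors' deposited table) and Ddit3, the factor also called CHOP, at 7.31 times (SE 1.01 in the authors' deposited table). Members thus held the 4 highest ratios, 11 of the 20 highest and 28 of the 100 highest. An SE of at least 3 times the running median was found for 28 of the 37 members with a mean of at least 100, 75.7%, where 1.21% of all genes did. The members were chosen with the 12 h spread known, so these ranks and shares describe it and are no test. The ratio of 3 lies in a sparse range, as 1 gene fell between 2.5 and 3, 59 between 2 and 2.5 and 32 between 3 and 3.5. DESeq2 pulls the dispersions of most genes towards a common trend and leaves those far above it as they are, which bears on the SE of genes just under that range.

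**Figure D2:**
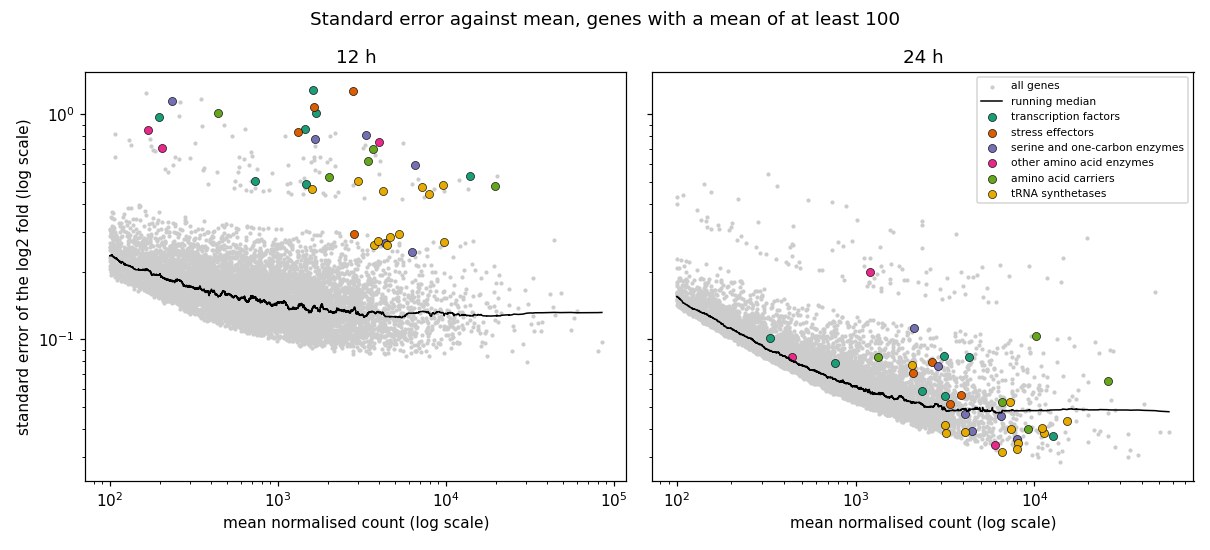
SE of the log2 fold (y axis, log scale) against the mean normalised count (x axis, log scale) for genes with a mean of at least 100, at 12 h (left) and 24 h (right). Grey points are all genes, the line is their running median over 201 genes and coloured points are members by role; at 12 h the members lie above the line, with Trib3 at an SE of 1.27, and at 24 h they lie around it.

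By role, the median ratio at 12 h was 6.87 for stress effectors, 5.11 for serine and one-carbon enzymes, 4.99 for transcription factors, 4.77 for amino acid carriers and 3.98 for other amino acid enzymes. These medians rest on 4 to 7 genes each, and the ranges overlapped, from 2.14 to 9.38 for stress effectors, 1.88 to 6.36 for serine and one-carbon enzymes, 3.28 to 9.19 for transcription factors and 1.08 to 5.71 for other amino acid enzymes. Within the serine and one-carbon group the mitochondrial enzymes Mthfd2, Aldh1l2 and Shmt2 stood at 6.36, 6.23 and 4.55 times. The serine pathway was mixed, with Phgdh and Psat1, which open it, at 1.88 and 2.10 times and Psph at 5.66 times. Among carriers the glycine transporter Slc6a9 had the highest ratio, 6.50, and Slc3a2, the heavy chain shared by several exchangers, the lowest, 3.78. Asns, which makes asparagine, stood at 5.71 times. Cbs, which makes cystathionine from homocysteine, had a ratio of 1.08 and, in the authors' deposited table, a mean count of 82.8. Ddit4 was at 2.14 times, the lowest of the stress effectors with a mean of at least 100.

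tRNA synthetases divided along membership. The 12 member synthetases ran from 1.98 times (Cars) to 3.90 times (Wars), with a median of 2.86, and 6 of them reached 3. The 8 other cytosolic synthetases, Dars, Farsa, Farsb, Hars, Kars, Qars, Rars and Vars, ran from 0.80 to 1.52, with a median of 1.08, so the ranges did not overlap at 12 h. In terms of the SD between libraries, the member synthetases spanned 0.34 to 0.66 on the log2 scale and the others 0.14 to 0.27. Of 16 mitochondrial synthetases with a mean of at least 100, none reached a ratio of 3, nor did any of 14 genes for eIF2, its kinases, eIF2B and the phosphatase subunit Ppp1r15b. Of 14 measured MYC and mTORC1 regulators 0 reached it, and of 20 ER chaperones and unfolded protein response genes 1 did, the sensor gene Atf6 at 3.62. In contrast 12 of 20 other reported ATF4 targets reached it, among them the neutral amino acid carrier Slc1a4 at 6.03, the stress cytokine Gdf15 at 5.74 and the translation repressor Eif4ebp1 at 4.70. The members and these lists were drawn up with the 12 h spread known, so these values describe it and no test was made.

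**Figure D3:**
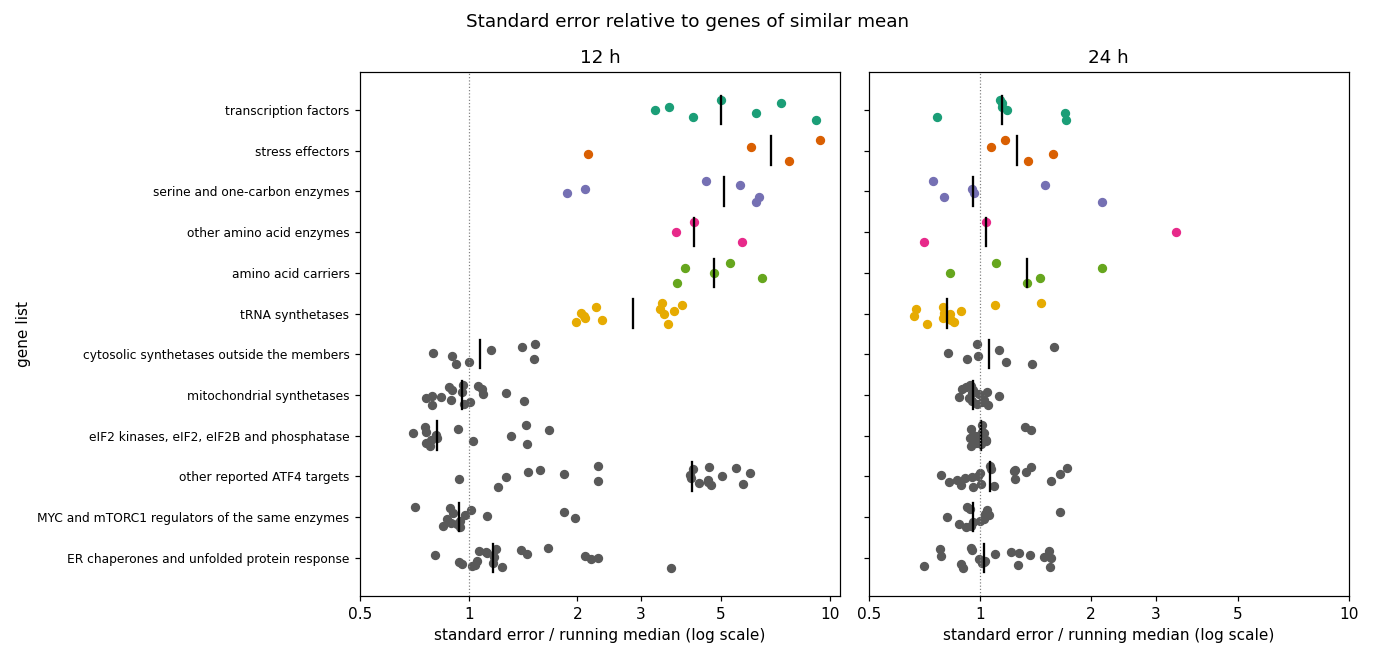
SE of the log2 fold divided by the running median SE of genes of similar mean (x axis, log scale; 1 marks the typical gene) for each gene with a mean of at least 100, by list, at 12 h (left) and 24 h (right). Points are genes, vertical bars are list medians; at 12 h the member lists and part of the other ATF4 targets lie well above 1, the 8 other cytosolic synthetases lie between 0.80 and 1.52, and at 24 h list medians lie near 1.

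The promoter core was set beside the spread over all genes. Of non-members whose mean reached 100 at 12 h, 10 of 173 with the core reached an SE ratio of 3, 5.78%, against 57 of 7243 without it, 0.787%. Of these 10, the genes Slc1a4, Vldlr, Jdp2, Got1 and Pck2 were on the list of other reported ATF4 targets, and the others, found after the values were seen, were Arid5a, Hax1, Creb5, Arl14ep and Fen1. Within the programme the medians were close, 4.09 in the 12 members that held the core and 3.98 in the 18 measured members that did not. At 24 h the shares of non-members reaching 3 were 2.41% with the core and 0.564% without it.

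At 24 h falls were called in part of the programme, and they were small. Of the 38 members with an adjusted p, 10 fell by the authors' Wald test (adjusted p below 0.05), 0 rose and 28 did not pass. That is 26.3% falling, where 6.52% of all genes fell and 5.9% rose. Highly expressed genes are called more often, and 12.5% of genes whose mean reached 1000 normalised counts fell, against 8 of 34 members above that mean, 23.5%. At an unadjusted p under 0.05, 17 of 39 members fell and 0 rose, where 1436 of 15819 genes with a p fell and 1409 rose. Folds were negative for 34 of the 38, 89.5%, against 50.1% of all genes and 57.8% of genes whose mean reached 1000. The median log2 fold of the members was -0.11, against 0.00 for all genes, and no member with an adjusted p moved by over 0.5 in the authors' deposited table.

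Transcription factors held the most falls, 5 of 7, with a median log2 fold of -0.24. Nupr1, a small stress-induced chromatin protein, fell by 0.37 (SE 0.10, adjusted p = 0.00481) in the authors' deposited table, to 77.6% of the ethanol level. From its mean and fold, about 372 normalised counts in ethanol became 288 in tamoxifen. Atf3 fell by 0.33 (SE 0.08, adjusted p = 0.00137) in the authors' deposited table, from about 4778 to 3790 normalised counts. Cebpb, a C/EBP partner of ATF4, fell by 0.30 (SE 0.08, adjusted p = 0.0028) in the authors' deposited table, and 20.7% of its exon bases overlap Tmem189 on the opposite strand, whose reads the library kit cannot separate. Ddit3 fell by 0.24 (SE 0.06, adjusted p = 0.000885) in the authors' deposited table, to 84.5% of ethanol. Atf4 itself fell by 0.12 (SE 0.04, adjusted p = 0.021) in the authors' deposited table, from about 13139 to 12131 normalised counts, that is 92.3% of the ethanol level, with an SE 0.77 times that of genes of similar mean. With each SE raised to at least the running median, the adjusted p of Atf4 was 0.112. Atf5 and Cebpg did not pass, with log2 folds in the authors' deposited table of -0.17 (SE 0.08) and -0.03 (SE 0.06).

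Of the 3 enzymes of serine synthesis 2 fell, and of the 3 one-carbon enzymes 1 did. Phgdh, the first enzyme of the serine pathway, fell by 0.36 (SE 0.05, adjusted p = 5.41e-13) in the authors' deposited table, the smallest adjusted p of the programme. About 7335 normalised counts in ethanol became 5725 in tamoxifen, 78.1% of the ethanol level. Psph, the last enzyme, fell by 0.25 (SE 0.08, adjusted p = 0.013) in the authors' deposited table; 10.4% of its exon bases overlap Cct6a on the opposite strand. Psat1, the middle enzyme, did not pass, with a log2 fold of 0.02 (SE 0.05) and a 95% interval from -0.07 to 0.11 in the authors' deposited table. The mitochondrial folate enzyme Mthfd2 fell by 0.14 (SE 0.04, adjusted p = 0.00377) in the authors' deposited table, while Shmt2, which splits serine into glycine and a one-carbon unit, stood at -0.04 (SE 0.04) and did not pass. Aldh1l2 had a log2 fold of -0.12 (SE 0.11) in the authors' deposited table and did not pass.

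None of the 4 other amino acid enzymes, the 5 carriers or the 4 stress effectors with an adjusted p passed at 24 h. Asns came nearest, with a log2 fold of -0.09 (SE 0.03, adjusted p = 0.0593) in the authors' deposited table. All 5 carriers had negative folds, from -0.16 for Slc6a9 to -0.08 for Slc7a5, the light chain of the LAT1 exchanger, in the authors' deposited table. In the authors' deposited table the cystine carrier Slc7a11 had a log2 fold of -0.12 (SE 0.10) and its partner Slc3a2 one of -0.13 (SE 0.07). Slc7a1, a carrier of cationic amino acids, had one of -0.09 (SE 0.04, adjusted p = 0.11) there. Trib3 and Chac1 had log2 folds in the authors' deposited table of -0.10 (SE 0.06) and -0.12 (SE 0.07). Ppp1r15a, the phosphatase subunit that reverses eIF2 phosphorylation, had a log2 fold of -0.11 (SE 0.05) in the authors' deposited table. Ddit4 stood at 0.15 (SE 0.08) and was the only effector with a positive fold in the authors' deposited table. Stc2, a secreted glycoprotein, had about 3 normalised reads over all libraries at 12 h and 12 at 24 h and no adjusted p at either time. Of the transsulfuration enzymes, Cth had a log2 fold of -0.26 with a 95% interval from -0.65 to 0.13, and Cbs one of 0.27 with an interval from -0.38 to 0.92, in the authors' deposited table. The intervals of Cth and Cbs allow changes as large as those of the members that fell. Without strand, reads of Slc6a9 cannot be told from those of Ccdc24 over 27.8% of its exon bases, nor those of Aldh1l2 from D10Wsu102e over 14.1%, and Aars shares 14.3% of its own with Exosc6 on the same strand.

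Among the 12 synthetases 2 fell and 10 did not pass at 24 h. All 12 had a mean above 1000, and their count of falls lay near the 12.5% of genes above that mean that fell. Gars, the glycyl-tRNA synthetase, fell by 0.13 (SE 0.04, adjusted p = 0.00673) and Nars, the asparaginyl-tRNA synthetase, by 0.13 (SE 0.04, adjusted p = 0.0248) in the authors' deposited table. The adjusted p of Nars was 0.0592 with each SE raised to at least the running median. Of the others, 9 had negative folds, among them Eprs, the glutamyl-prolyl-tRNA synthetase, at -0.08 (SE 0.04), and Iars had a positive one of 0.05 (SE 0.03) in the authors' deposited table. Intervals were narrow here, and the 95% interval of Mars ran from -0.09 to 0.06 and that of Sars from -0.11 to 0.01, from the authors' deposited table. Of the 8 other cytosolic synthetases, also above that mean, 1 fell, Farsb by 0.14 (SE 0.05, adjusted p = 0.0231) in the authors' deposited table, likewise near that share. Of 17 mitochondrial synthetases 0 passed and 0 had an unadjusted p under 0.05.

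Related lists were set beside the 6.52% of all genes that fell and the 5.9% that rose at 24 h. Of 20 ER chaperone and unfolded protein response genes 4 rose and 1 fell at 24 h, with a median log2 fold of 0.10 and 16 positive folds. Ern1, the sensor that splices Xbp1, rose by 0.37 (SE 0.06, adjusted p = 1.02e-09), and Xbp1 by 0.15 (SE 0.05, adjusted p = 0.0218), in the authors' deposited table. The chaperone genes Hspa5 and Canx rose, each by 0.11 in the authors' deposited table (SE 0.04 and 0.03). Herpud1, a degradation factor listed both here and among other ATF4 targets, fell by 0.31 (SE 0.07, adjusted p = 0.000879) in the authors' deposited table. Of 21 other reported ATF4 targets with an adjusted p, 5 fell and 1 rose, with a median of -0.09. Beside Herpud1 the falls in the authors' deposited table were Ndrg1 by 0.27 (SE 0.05), Got1, the cytosolic aspartate transaminase, by 0.21 (SE 0.05), Eif4ebp1 by 0.18 (SE 0.05) and Slc1a4 by 0.14 (SE 0.05). Gdf15 rose by 0.25 (SE 0.06, adjusted p = 0.00085) in the authors' deposited table. Of 14 genes around eIF2, Impact, which restrains the amino acid sensor kinase GCN2, was the 1 called member and fell by 0.27 (SE 0.07, adjusted p = 0.00381) in the authors' deposited table, and the 4 kinase genes did not pass. Of the MYC and mTORC1 regulators Sesn3, a sestrin, rose by 0.32 (SE 0.08) and Lamtor1, a lysosomal anchor of mTORC1, fell by 0.17 (SE 0.06) in the authors' deposited table, with 13 not passing. With 1 of 14 and 2 of 15 genes called, the last 2 lists lay near the shares over all genes. At 12 h 0 genes of any of these lists passed in the authors' Wald test, and 1, the mTORC1 subunit gene Rptor, had an unadjusted p under 0.05.

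**Figure D4:**
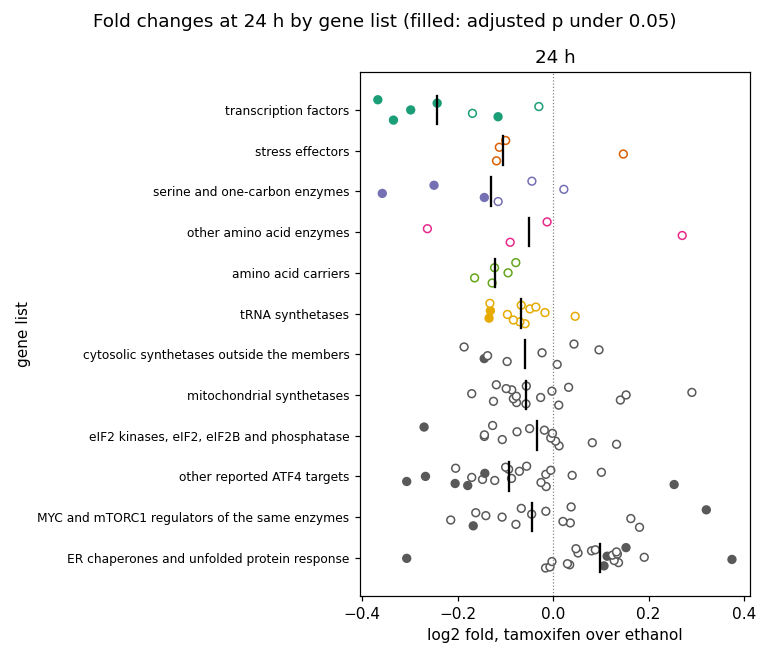
Log2 fold of tamoxifen over ethanol at 24 h (x axis) for each gene with an adjusted p, by list. Filled points passed an adjusted p under 0.05 and vertical bars are list medians; the transcription factors have the lowest median, -0.24, and the ER chaperones and unfolded protein response genes the highest, 0.10.

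At 24 h the members' SEs lay closer to those of other genes than at 12 h, and some were among the smallest for their mean. SEs were smaller at 24 h for 38 of the 39 members, Cbs being the exception. They were also smaller over all genes with an adjusted p, with a median of 0.179 at 12 h and 0.086 at 24 h. The members' median ratio to genes of similar mean was 1.08, against 3.84 at 12 h. The lowest ratio at 24 h was 0.66, for Iars, at rank 9131 of 9140 genes with a mean of at least 100. Member synthetases had a median ratio of 0.81 at 24 h, against 1.06 for the other cytosolic synthetases. The 1 member at 3 times or above was Cth, at 3.41, where 0.755% of all genes were. Trib3 went from 9.38 to 1.17 times and Atf3 from 9.19 to 1.72 times. The times were tested against each other as the difference of log2 folds over its SE. None of the 39 members passed, where 0.0134% of genes did, and 0 members had an unadjusted p under 0.05, where 1.64% of genes did. Ddit4 came nearest, with a difference of 24 h minus 12 h of -0.51 (SE 0.30), which did not pass the Wald test of the difference. The 24 h fold of every member lay inside its 12 h interval, which for Trib3 ran from -2.28 to 2.68 and for Atf4 from -0.75 to 1.33 in the authors' deposited table. Falls of the size seen at 24 h were not detectable at 12 h with these SEs, and of the 10 members that fell at 24 h, 5 had a positive fold at 12 h.

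Levels of the programme, over ethanol and tamoxifen libraries together, were higher at 24 h than at 12 h. Members took 1.09% of normalised counts at 12 h and 1.82% at 24 h. A larger share at 24 h was taken by 36 of 39 members, and by 5692 of 13044 genes with an adjusted p at 12 h. The times were normalised separately and have no replicate values here, so these levels are side by side with no test. The median ratio of shares was 1.68 for members, against 0.92 over all genes with an adjusted p at 12 h. The largest ratio among members with an adjusted p was that of Aldh1l2, 10.6, followed by Cth at 6.93 and Slc7a11 at 5.93, while Atf4 differed little, at 1.06. Member synthetases had a median of 1.43 and the other cytosolic synthetases one of 0.83. Higher levels at 24 h were not particular to the members. The median was 1.93 for other reported ATF4 targets, 1.45 for ER chaperones and unfolded protein response genes and 1.33 for MYC and mTORC1 regulators. Genes around eIF2 had a median of 1.02 and mitochondrial synthetases one of 0.87. Cbs went the other way, at 0.34. As normalised counts scaled to the total of the time and to exon length (CPM per kb), Slc3a2 had the highest level at 24 h, 618 CPM per kb, followed by Atf4 at 452, Gars at 305 and Nars at 295. Apart from Stc2, the lowest was Cbs at 0.27. At 12 h Atf4 was first at 426 and Slc3a2 second at 401, with the large spread between libraries described above.

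**Figure D5:**
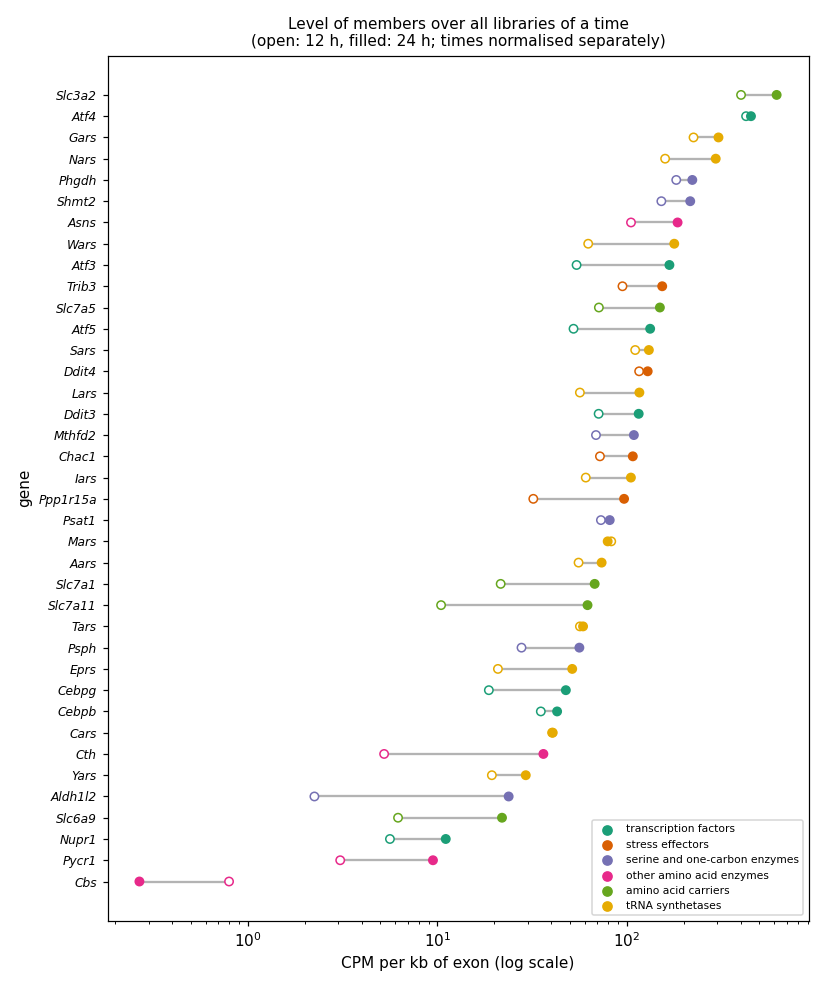
Level of 38 members (all but Stc2) in CPM per kb of exon (x axis, log scale), averaged by the authors over all libraries of a time. Open points are 12 h and filled points 24 h; the times were normalised separately, and most members have a higher level at 24 h, with Cbs lower.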

How the data were processed

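Libraries were single-end RNA-seq of total RNA made with the TruSeq RNA v2 kit, which does not mark the strand, per the labels' protocols. HISAT2, mm10 and DESeq2 are named in the submitters' processing notes; the sources used here give no version, counter, annotation or model. The authors deposited 1 comparison per time, with columns named in the file headers: a mean signal (baseMean, counts over size factors), a log2 fold and its SE, a Wald score, and a p-value before and after adjustment. There are no counts per library. An adjusted p is given for 13044 genes at 12 h and 11648 at 24 h, and left blank for weakly expressed genes.

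The direction was checked on genes with 1 read: their 7 distinct means at 12 h split into 3 with negative and 4 with positive folds, matching 3 ethanol and 4 tamoxifen libraries if tamoxifen is the numerator. At 24 h the split was 4 and 4, which cannot check it, and the direction at 12 h was assumed. Klf5, the gene deleted after tamoxifen, had a negative log2 fold at both times under this reading, -1.29 at 12 h and -1.72 at 24 h.

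A gene was called when its adjusted p from the authors' Wald test lay below 0.05. The difference of folds between times was divided by the root of the summed squared SEs, with Benjamini-Hochberg adjustment over 14981 genes, a procedure tested on simulated data. Each SE was divided by the median of the 201 genes nearest in mean; intervals are 1.96 SEs wide on each side and cover that error only. The SD between libraries is the SE over the root of the summed inverse group sizes. Group means were computed from the mean and fold and are approximate. Exon lengths, overlaps and positions come from GENCODE M21 on GRCm38, promoters from RefSeq on GRCm38.p6; the matches of 1 member are not reported here. The rule was to name all members and, of each other list, up to 4 called genes of smallest p per time; Hspa5, Eif4ebp1 and Slc1a4 at 24 h, and genes of those lists named for their 12 h spread or an unadjusted p, were chosen after their values were seen; Castor1 was matched as Gatsl3 through RefSeq synonyms, and 3 genes stand in more than 1 list. The members and lists were chosen with earlier results of these data known. Computations used scipy 1.17.1, numpy 2.4.6 and pandas 2.3.3 under Python 3.11.15, figures matplotlib 3.10.9.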

Additional observations from a re-analysis of the deposited data

How the results depend on the processing

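No paired analysis was possible because there is no value per library, and for the same reason no replicate could be left out. The library titles carry replicate numbers, and a number is missing from the ethanol group at 12 h. Whether equal numbers mark pairs or batches could not be checked. Under the 6 alternatives that could be run (adjustment over all genes with a p, thresholds of 0.01 and 0.1, a minimum mean of 100, SEs raised to the running median, and folds centred on the median), 0 members passed at 12 h and between 7 and 11 fell at 24 h, with 0 rising. At 0.01 Atf4, Psph and Nars were lost, with SEs raised Atf4 and Nars were, and at 0.1 Asns was added. No member differed between times under the 3 alternatives for that test. Centring moved the fold of Eprs at 12 h from -0.01 to 9.45e-05, a change of sign in a value that did not pass; no other member changed sign. The 12 h SEs limit what can be seen there.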

Other observations

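Beyond the programme, 75 genes outside all lists had an SE of at least 3 times that of genes of similar mean at 12 h, and those named here were chosen after their values were seen. Stbd1, a glycogen-binding protein, stood at 7.01 times and the snoRNA host genes Snhg1 and Snhg12 at 6.26 and 5.15 times. Areg, a ligand of the EGF receptor, stood at 5.89 times, Aldh18a1, the first enzyme of proline synthesis from glutamate, at 5.78 times, the growth arrest gene Gadd45a at 5.46 times and the bZIP repressor gene Nfil3 at 5.22 times. The clock-associated gene Ciart stood at 6.05 times. No value per library was at hand to show which libraries were high or low in these genes, or whether they were the same ones for each gene.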
